A study of Mus musculus with 4 samples.

Results

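The genes described here encode scaffolds of the tight junction and of apical-basal polarity: Pard3, Pard6b, Prkci, Crb3, Llgl2, Scrib, Tjp1, Tjp3 and Ocln. They were taken as every probe set whose platform annotation gave that symbol alone, with claudins left out. This gave 17 probe sets for 9 genes, of 45101 probe sets on the array and 18193 genes named by a lone symbol. All 17 had a mean over the 4 arrays above the filter for low signals, which lay at about 11.7. The samples were mouse liver cell lines, with RNA read on 4 Affymetrix Mouse430_2 GeneChip arrays. Of these, 2 arrays held MMH-D3, a hepatocytic line described as differentiated. Resident liver stem cells (RLSC) were measured as 2 lines with 1 array each. MetE14/3 was derived through clone B2 from embryonic liver of a mouse carrying the cyto-Met transgene, taken at 14 days post coitum; the promoter of the transgene is not given in the labels. WTE14/1 came from an embryo liver of the same age, WT in the labels, and its source name reads WT E14/3. Both RLSC lines were chosen for palmate colonies and grown for about 50 generations on collagen I before freezing. The labels give no genotype or donor age for MMH-D3, and describe the expansion in DMEM with serum for the RLSC lines alone. Nothing in the labels tells whether separate MMH-D3 cultures were used. The p-values therefore rest on the spread among these 4 samples alone, which may be technical. In lysates of whole cultures, fewer cells of a type and less RNA per cell cannot be told apart.

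Epithelial cells separate an apical from a basolateral membrane by protein complexes that hold each other in place. The PAR complex (PAR3, PAR6 and atypical protein kinase C) and the Crumbs complex act on the apical side, and the Scribble complex with its LGL partner on the basolateral side. At the border between them lies the tight junction, where ZO proteins tie occludin and other membrane proteins to actin. In hepatocytes these junctions seal the bile canaliculus from the blood side.

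The clearest difference was in the PAR complex. The adaptor gene Pard6b was lower in RLSC, at a mean signal of 102 ± 7.36 against 844 ± 142 in MMH-D3 (SD, n = 2 arrays each). It was the only one of the 9 genes to pass limma's test across all genes. Its paralog Pard6g, which is not among the 9 genes, was higher in RLSC. The signals of the kinase partner Prkci overlapped between the 2 groups at its brightest probe set and lay above MMH-D3 in both RLSC lines at its other. For Llgl2, Tjp1, Tjp3 and Ocln the signals of both RLSC lines also lay below both MMH-D3 arrays, without passing. By the probe set of highest mean, Scrib, Pard3, Prkci and Crb3 overlapped between the groups.

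**Figure D1:**
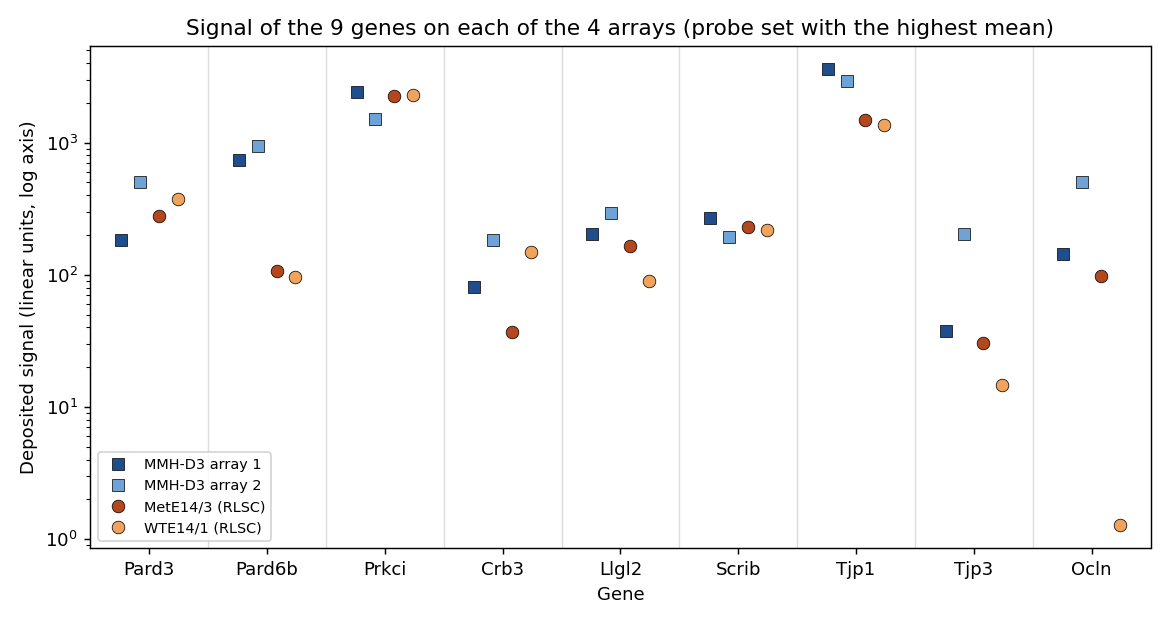
Deposited signal (linear units on a log axis) of each of the 9 genes, shown by its brightest probe set, on the 2 MMH-D3 arrays (squares) and the 2 RLSC arrays (circles), 1 point per array. The Pard6b circles lie at 107 and 96.8, far below the squares at 744 and 944, and the Ocln circle of WTE14/1 lies at 1.27, apart from the other 3 arrays.

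A difference below is RLSC minus MMH-D3 on the scale log2(signal + 4) after quantile normalization, with its standard error (SE). Adjusted p-values come from limma with Benjamini-Hochberg adjustment over 12598 genes, at a threshold of 0.05, where each gene stands by its brightest probe set on average. Of these genes 65 (0.516%) were called lower and 50 (0.397%) higher in RLSC, 0.913% in all. Among the 9 genes, 1 was called lower and 0 higher. An unadjusted p under 0.05 was reached by 4 of them, all lower (Pard6b, Tjp1, Tjp3 and Ocln), beside 7.1% of all genes lower and 5.27% higher at that level. By normalized values, on which overlap and order are judged throughout, the groups did not overlap at 5 of the 9 genes, all with RLSC below, where 21.4% of all genes had RLSC below both MMH-D3 arrays and 20.8% above both, 42.2% in all. The median difference was -1.12 over the 9 genes and 0.03 over all genes tested. The number of arrays limits the precision of every value.

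Promoter windows are shown for the 3 genes with the largest negative differences (Pard6b, Ocln and Tjp3), for Crb3, and for Tjp1 and Prkci, which hold no match. They come from RefSeq on build GRCm38.p6 and run from 250 bases before to 50 after a gene's start, 5′ to 3′ on the gene's strand. Of the 9 genes, 7 had a window; where a gene has several starts, the first in the table is printed. Capitals mark the E-box CAGGTG or its reverse complement CACCTG, so that both strands are covered. This is a sequence known to be bound by the Snail and Zeb repressors of epithelial genes.
Pard6b, chr2:168080754-168081053, plus strand: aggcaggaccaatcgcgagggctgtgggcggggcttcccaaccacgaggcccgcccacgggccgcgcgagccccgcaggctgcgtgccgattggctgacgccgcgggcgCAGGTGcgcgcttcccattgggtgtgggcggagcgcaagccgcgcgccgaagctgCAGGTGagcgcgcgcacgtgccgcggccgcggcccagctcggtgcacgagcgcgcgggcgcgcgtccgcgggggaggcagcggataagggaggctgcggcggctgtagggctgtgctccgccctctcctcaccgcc
Crb3, chr17:57061951-57062250, plus strand: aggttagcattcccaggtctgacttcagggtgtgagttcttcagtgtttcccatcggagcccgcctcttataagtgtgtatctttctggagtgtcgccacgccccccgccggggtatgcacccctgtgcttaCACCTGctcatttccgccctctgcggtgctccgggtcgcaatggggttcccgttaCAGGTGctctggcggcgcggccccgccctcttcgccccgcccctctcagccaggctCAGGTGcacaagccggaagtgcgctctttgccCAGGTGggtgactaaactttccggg
Ocln, chr13:100552669-100552968, minus strand: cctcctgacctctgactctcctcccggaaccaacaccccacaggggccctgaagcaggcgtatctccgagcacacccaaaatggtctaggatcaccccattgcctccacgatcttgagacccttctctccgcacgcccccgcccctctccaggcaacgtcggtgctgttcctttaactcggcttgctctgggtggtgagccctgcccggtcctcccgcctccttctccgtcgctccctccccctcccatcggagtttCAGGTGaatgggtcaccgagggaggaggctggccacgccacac
Tjp3, chr10:81291532-81291831, minus strand: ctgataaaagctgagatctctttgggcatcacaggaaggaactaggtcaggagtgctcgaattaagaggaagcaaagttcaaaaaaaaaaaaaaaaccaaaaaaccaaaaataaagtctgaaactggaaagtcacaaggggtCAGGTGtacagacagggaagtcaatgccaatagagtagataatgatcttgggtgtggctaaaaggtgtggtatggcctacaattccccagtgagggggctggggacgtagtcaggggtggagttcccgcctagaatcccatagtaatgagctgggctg
Tjp1, chr7:65371195-65371494, minus strand: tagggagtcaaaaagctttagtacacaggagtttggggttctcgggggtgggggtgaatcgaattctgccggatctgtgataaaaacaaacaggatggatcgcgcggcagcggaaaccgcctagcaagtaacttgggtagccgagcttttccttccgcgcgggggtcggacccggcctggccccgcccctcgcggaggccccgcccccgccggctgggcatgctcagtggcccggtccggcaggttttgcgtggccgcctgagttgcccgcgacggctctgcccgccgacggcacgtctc
Prkci, chr3:30995521-30995820, plus strand: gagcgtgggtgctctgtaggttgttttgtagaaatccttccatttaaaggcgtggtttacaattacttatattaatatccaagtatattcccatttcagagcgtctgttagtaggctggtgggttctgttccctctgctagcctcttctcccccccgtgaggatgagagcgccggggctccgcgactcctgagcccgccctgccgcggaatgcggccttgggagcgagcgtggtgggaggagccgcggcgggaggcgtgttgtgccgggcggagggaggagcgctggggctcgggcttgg
Pard6b holds 2 matches, which begin at window positions 110 and 165, counted from 1 at the 5′ end. Crb3 holds 4, beginning at positions 133, 188, 244 and 276, and its other window, which overlaps this one, holds the same number. Ocln has 1 match at position 258. Its other window overlaps this one and holds 2 matches, of which that at its position 38 is the same site. Each Tjp3 window has 1 match. Of 32851 windows of all genes, 20.2% hold at least 1 match, 2.88% at least 2, 0.365% at least 3 and 0.0548% at least 4. These shares are per window, and Pard3, Crb3, Tjp3 and Ocln have 2 windows each. Tjp1, whose RLSC signals lay below MMH-D3, and Prkci, whose signals overlapped at its brightest probe set, hold none in these 300 bases. Pard3 has 0 matches in its first window and 3 in the other. A match of letters is a description of the window and shows no binding.

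Within the PAR complex, PAR6 proteins link atypical protein kinase C to Cdc42 and PAR3. Pard6b was measured by 2 probe sets designed on the same transcript record, so they are not independent. Probe set 1423174_a_at gave a signal of 107.2 in MetE14/3, 96.8 in WTE14/1, 743.5 on MMH-D3 array 1 and 943.9 on array 2. Probe set 1423175_s_at gave 80.6, 97.7, 730.0 and 821.2 on the same arrays. The RLSC lines were low and alike, and the groups were far apart on both probe sets. The gene's difference was -3.09 (SE 0.43, 95% confidence interval -4.14 to -2.04, limma adjusted p = 0.0421), with RLSC below MMH-D3 in 2 of 2 lines. In a fit over all 27022 probe sets past the filter, where 0.392% were called lower, both Pard6b probe sets passed (limma adjusted p = 0.0493 and 0.0444). Of the 17 probe sets 0 were called higher, where 0.34% of all probe sets were. The gene's call was lost when any array was left out: the limma adjusted p was 0.0878 without MMH-D3 array 1, 0.284 without array 2, 0.0818 without MetE14/3 and 0.156 without WTE14/1. It was also lost without a filter on low signals (limma adjusted p = 0.0649) and without an intensity trend in the variance (0.0569), while the difference stayed between -3.43 and -2.75 in every setting and array pair tried. Leaving out an array leaves 1 array in its group, which the fit assumes to vary as the other group's arrays do. Without MMH-D3 array 1 or array 2, 0 of the 12598 genes passed limma's test (2228 and 1056 at an unadjusted p under 0.05), so the loss of a call there does not single out any gene.

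Prkci encodes the iota form of atypical protein kinase C, the enzyme of the complex. Its probe set 1417410_s_at read 2248.0 in MetE14/3, 2310.6 in WTE14/1, 2424.7 on MMH-D3 array 1 and 1498.7 on array 2. Both deposited RLSC signals lay between those of the MMH-D3 arrays, and after normalization WTE14/1 was the highest of the 4. The difference was 0.33 (SE 0.33, 95% confidence interval -0.47 to 1.13, limma adjusted p = 0.794), which spans 0. The other probe set, 1448695_at, read 578.5 and 319.1 on the MMH-D3 arrays and 613.1 and 720.9 in the RLSC lines, a difference of 0.63 (SE 0.47).

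Pard3 encodes PAR3, which anchors the complex at the forming junction. It had 4 probe sets with differences between -0.63 and 0.44, none passing. The brightest, 1434775_at, read 279.1 in MetE14/3, 371.6 in WTE14/1, 184.5 on MMH-D3 array 1 and 505.6 on array 2. Both RLSC signals lay inside the range of the MMH-D3 arrays, and the difference was -0.02 (SE 0.55, 95% confidence interval -1.37 to 1.32, limma adjusted p = 0.995). Its sign turned to 0.07 without normalization between arrays. Probe set 1420391_at read 2.0 on MMH-D3 array 1 and 78.5 on array 2, so the MMH-D3 arrays differed more than the groups did.

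The list of other PAR genes held 6: Pard3b, Pard6a, Pard6g, Prkcz, Cdc42 and Tiam1. All were tested, and 2 were called higher and 1 lower in RLSC, against 0.397% and 0.516% of all genes. Of these, Prkcz and Tiam1 passed the filter only through the group in which they were high, so the count is a description. Pard6g, a paralog of Pard6b, read 15.3 and 20.9 on the MMH-D3 arrays, 542.8 in MetE14/3 and 859.2 in WTE14/1. The groups were far apart in the opposite direction to Pard6b, with a difference of 4.89 (SE 0.49, limma adjusted p = 0.0316). Its second probe set, 1450025_at, ran the same way, at 2.96 (SE 0.56), without passing. Pard6a, the remaining paralog, read 106.5 and 149.7 on the MMH-D3 arrays and 128.7 and 134.6 in the RLSC lines. The groups overlapped, at -0.09 (SE 0.45, limma adjusted p = 0.971).

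Prkcz, the zeta form of atypical protein kinase C, read 117.4 and 147.1 on the MMH-D3 arrays, 5.4 in MetE14/3 and 1.92 in WTE14/1. The difference by this probe set was -4.28 (SE 0.56, limma adjusted p = 0.0372). Of its other probe sets, 1449692_at overlapped between the groups (-1.35, SE 1.34) and 1454902_at lay below the filter, and by the median of its probe sets Prkcz did not pass (-2.82, limma adjusted p = 0.247). Tiam1, an exchange factor for Rac that binds PAR3, read 0.6 and 1.61 on the MMH-D3 arrays, 96.3 in MetE14/3 and 125.0 in WTE14/1 (4.40, SE 0.54, limma adjusted p = 0.0361). Only 1 of its 3 probe sets passed the filter. The RLSC signals of Prkcz and the MMH-D3 signals of Tiam1 lay below the filter level and are not shown to exceed background, so neither call is independent of that filter. With a pseudocount of 32 the differences were -2.26 and 2.04. Cdc42, the small GTPase that binds PAR6, differed by 0.25 (SE 0.24) and Pard3b by -2.02 (SE 0.71), neither passing. When each array was left out in turn, the difference stayed between 4.53 and 5.24 for Pard6g, -4.68 and -3.87 for Prkcz, and 4.28 and 4.52 for Tiam1. Without WTE14/1 the limma adjusted p was 0.0766, 0.0929 and 0.112 for these genes, and without MetE14/3 it was 0.0248, 0.0355 and 0.0604, in each case with a lone RLSC array. Without MMH-D3 array 1 it was 0.0710, 0.0964 and 0.0876, and without array 2 it was 0.238, 0.272 and 0.238, where no gene on the array passed.

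**Figure D2:**
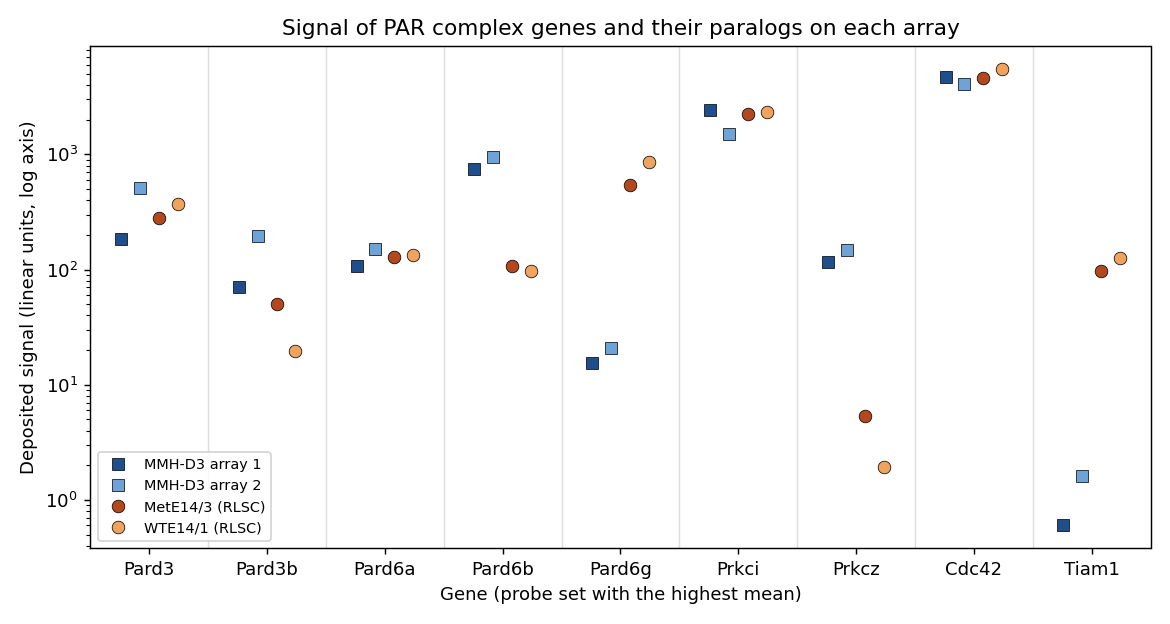
Deposited signal (linear units on a log axis) of PAR complex genes and their paralogs on the 2 MMH-D3 arrays (squares) and the 2 RLSC arrays (circles), 1 point per array. Each gene is shown by its brightest probe set. Pard6b and Prkcz circles lie below the squares, Pard6g and Tiam1 circles lie above them, and Pard6a, Prkci and Pard3 overlap.

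Crb3 encodes the Crumbs protein of most epithelia, a short membrane protein that recruits PALS1 and PAR6 to the apical side. Its 3 probe sets disagreed in WTE14/1. Probe set 1455115_a_at read 36.7 in MetE14/3, 148.8 in WTE14/1, 80.7 on MMH-D3 array 1 and 183.6 on array 2. Probe set 1434851_s_at, designed on the same transcript record, read 37.5, 24.4, 93.6 and 158.4 on these arrays. By the first the groups overlapped, and by the second both RLSC lines lay below MMH-D3. The differences were -0.81 (SE 0.71, limma adjusted p = 0.752) for the gene by its brightest probe set and -2.09 (SE 0.52, limma adjusted p = 0.195 over all probe sets) for the second. The third, 1424809_at, read 39.6, 73.1, 54.2 and 155.9, with a difference of -0.95 (SE 0.56). The sign of the gene's difference turned to 0.05 without MetE14/3. Of 8 other Crumbs complex genes on the list, 5 were tested and 0 were called, and at an unadjusted p under 0.05 there was 1, Patj, lower. Patj, a multi-PDZ scaffold bound by PALS1, read 131.5 and 102.9 in RLSC against 213.7 and 394.3 (-1.43, SE 0.50, limma adjusted p = 0.311). The related scaffold Mpdz read 275.1 and 582.3 against 204.7 and 74.9 (1.62, SE 0.69, limma adjusted p = 0.428).

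Among the basolateral genes, Llgl2 encodes an LGL protein that atypical protein kinase C keeps off the apical side. It read 164.2 in MetE14/3, 89.9 in WTE14/1, 203.5 on MMH-D3 array 1 and 292.6 on array 2. Both RLSC lines lay below MMH-D3, with MetE14/3 close to MMH-D3 array 1. The difference was -1.14 (SE 0.53, 95% confidence interval -2.43 to 0.15, limma adjusted p = 0.472). Scrib, the large scaffold of the complex, read 230.6, 220.2, 267.0 and 192.3 on the same arrays, so that the RLSC lines lay between the MMH-D3 arrays. Its difference was -0.09 (SE 0.46, 95% confidence interval -1.20 to 1.02, limma adjusted p = 0.972), and turned to 0.22 without MMH-D3 array 1. Of 8 other Scribble complex genes listed, 7 were tested and 0 were called, with 0 at an unadjusted p under 0.05. Dlg4, a Discs large scaffold, had the largest positive difference without overlap (0.92, SE 0.52) and Lrrc1 the only negative one (-0.67, SE 0.51).

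Tjp1 encodes ZO-1, the scaffold that joins claudins and occludin to actin. It read 1477.1 in MetE14/3, 1369.1 in WTE14/1, 3626.0 on MMH-D3 array 1 and 2907.8 on array 2. The 2 RLSC lines were alike and lay well below both MMH-D3 arrays. The difference was -1.12 (SE 0.29, 95% confidence interval -1.82 to -0.42) and did not pass over all genes (limma adjusted p = 0.177). Tjp3 encodes ZO-3, a relative found mainly in epithelia, and read 30.4, 14.8, 37.5 and 202.5 on these arrays. MMH-D3 array 1 lay near MetE14/3 and array 2 far above, and the difference was -2.10 (SE 0.81, limma adjusted p = 0.368), or -1.35 with a pseudocount of 32. Of 19 other junction plaque genes listed, 17 were tested and 0 were called, and at an unadjusted p under 0.05 there was 1, lower. This was Cgn, encoding cingulin, which read 84.2 and 42.6 in RLSC against 157.8 and 163.9 (-1.59, SE 0.58, limma adjusted p = 0.336). The largest positive difference without overlap was that of Amotl2 (0.71, SE 0.34).

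Ocln encodes occludin, a membrane protein of the tight junction that ZO proteins bind. Probe set 1448873_at read 97.4 in MetE14/3, 1.27 in WTE14/1, 144.7 on MMH-D3 array 1 and 507.1 on array 2. WTE14/1 stood apart near the floor of the array, while MetE14/3 lay close to MMH-D3 array 1. The difference was -3.70 (SE 1.39, 95% confidence interval -7.06 to -0.33, limma adjusted p = 0.353). It moved with the pseudocount, to -2.31 with 32 and -4.36 with 1. Without MetE14/3 it was -5.87 (limma adjusted p = 0.0355), but this sets the lone WTE14/1 array, at a signal below the filter level, against MMH-D3, whose 2 arrays alone give the spread. The other probe set, 1440220_at, read 26.9, 19.5, 42.4 and 190.0, a difference of -2.05 (SE 0.69, limma adjusted p = 0.347 over all probe sets), or -1.34 with a pseudocount of 32. By that probe set WTE14/1 was not set apart from MetE14/3.

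Junction membrane genes other than Ocln and the claudins were 14 on the list, of which 12 were tested. Of these 2 were called lower and 0 higher, against 0.516% and 0.397% of all genes. At an unadjusted p under 0.05, 7 were lower and 0 higher, against 7.1% and 5.27%. Besides Jam2, Lsr and Marveld2 below, these were F11r, Nectin2, Marveld3 and Ildr2, listed after their values were seen. Ildr2 read 5.1 in MetE14/3 but 313.8 in WTE14/1, and Marveld3 was low in both, at 5.7 and 16.3. Jam2, a junctional adhesion molecule, read 1138.4 and 3399.5 on the MMH-D3 arrays, 64.4 in MetE14/3 and 107.0 in WTE14/1 (-4.57, SE 0.63, limma adjusted p = 0.0402). All 5 of its probe sets had RLSC below both MMH-D3 arrays, by differences from -6.43 to -1.97. The probe set at -6.43, 1431416_a_at, read 8.6 and 5.18 in RLSC, below the filter level, and passed the filter only through MMH-D3. That at -1.97, 1431417_at, read 11.1 and 15.2 in RLSC, near that level. Lsr, a protein of tricellular junctions, read 169.2 and 235.0 against 1866.8 and 1512.3 (-3.07, SE 0.39, limma adjusted p = 0.0371). When each array was left out in turn, the difference stayed between -5.39 and -3.74 for Jam2 and between -3.27 and -2.88 for Lsr. The limma adjusted p of Jam2 was then 0.0699, 0.238, 0.0723 and 0.0959, for MMH-D3 arrays 1 and 2, MetE14/3 and WTE14/1, and that of Lsr was 0.0876, 0.238, 0.0844 and 0.101. Marveld2, encoding the occludin relative tricellulin and named here after its values were seen, read 7.8 and 1.55 against 96.0 and 118.3 (-3.85, SE 0.63, limma adjusted p = 0.0583). Both its RLSC signals lay below the filter level and are not shown to exceed background, so it passed the filter only through MMH-D3. The count of 7 lower genes is therefore a description. Of 9 kinases and partners of the PAR1 and LKB1 kind, 8 were tested and 0 called, with 1 lower at an unadjusted p under 0.05. This was Cab39 (-1.09, SE 0.42), and the largest positive difference without overlap was that of Stk11, encoding LKB1 (0.79, SE 0.43).

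Over all 64 listed pathway genes, 55 were tested, 3 were called lower and 2 higher, against 0.516% and 0.397% of all genes, and the median difference was -0.02, against 0.03 over all genes. Without a filter on low signals none of these 5 calls held, with limma adjusted p-values from 0.0515 for Pard6g to 0.0803 for Prkcz. Without a variance trend those of Jam2 (limma adjusted p = 0.0608) and Lsr (0.0569) did not hold either.

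**Figure D3:**
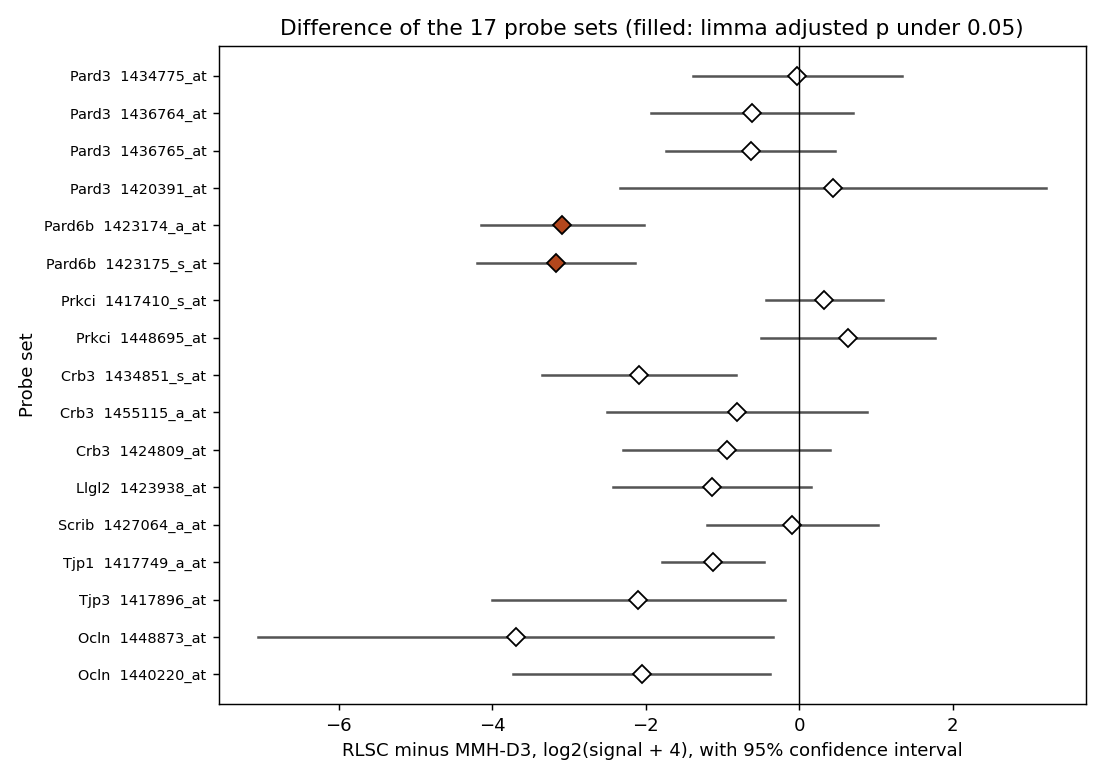
Difference of each of the 17 probe sets, RLSC minus MMH-D3 on the log2(signal + 4) scale (horizontal axis), with its moderated 95% confidence interval; filled diamonds mark limma adjusted p under 0.05 over all probe sets. The 2 Pard6b probe sets are filled, at -3.09 and -3.16, and 7 of the 17 intervals lie wholly below 0.

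At probe set level, 14 of the 17 differences were negative and 10 had both RLSC lines below both MMH-D3 arrays, against 19.5% of all probe sets. Only 1448695_at of Prkci had both lines above. The median was -0.95 over the 17 probe sets and 0.05 over all. Probe sets of a gene share its transcript and are not replicates.

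Between the RLSC lines, with 1 array each, values are descriptions with no test. The 2 lines also fell in different array pairs, described below, so line, transgene and array pair cannot be told apart. Ocln was the only one of the 9 genes at least 4-fold apart, by 4.34 on the log2 scale, MetE14/3 minus WTE14/1, where 5.13% of all genes were as far apart. Its other probe set differed by 0.78. The next differences were -1.73 for Crb3, 1.22 for Tjp3 and 1.04 for Llgl2, and those of Pard6b (0.33), Scrib (0.15) and Tjp1 (0.03) were small. MetE14/3 was above WTE14/1 at 6 of the 9 genes, against 50% of all genes. The MMH-D3 arrays were at least 4-fold apart at 0 of the 9 genes and at 5.96% of all genes. Array 1 was below array 2 at 6 of the 9, against 50% of all genes, with array 1 minus array 2 at -1.94 for Tjp3, while it was above array 2 for Tjp1, Prkci and Scrib. The MMH-D3 arrays differed by -0.35 for Llgl2. For Crb3 they differed by -0.85 at 1455115_a_at, beside -1.73 between the lines, by -0.44 at 1434851_s_at, beside 0.90, and by -1.09 at 1424809_at, beside -0.55, so its probe sets gave no common direction between the lines.

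Pard6b, Llgl2, Tjp3 and Ocln shared 1 order of the arrays: MMH-D3 array 2, MMH-D3 array 1, MetE14/3, WTE14/1, from high to low. Of all genes tested, 8.55% had this order. Among the listed pathway genes it was found in 8: Pard3b, Prkcz, Patj, Magi3, Amot, Wwc1, F11r and Cab39. The likeness is one of rank over 4 arrays. Neighbours in it often differed little, as MetE14/3 and WTE14/1 for Pard6b.

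The arrays fell into pairs by a technical measure. Pair A was MMH-D3 array 1 with MetE14/3, and pair B was MMH-D3 array 2 with WTE14/1. The 24 probe sets of poly-A controls, RNA spiked in before labelling, were higher in pair A by a median of 10.7-fold (5.75 to 26.2), while for the 18 hybridization controls the median ratio was 0.879. Signals of pair A were deposited to 1 decimal and those of pair B with more digits. Each pair held 1 array of each group, so differences between the RLSC lines and between the MMH-D3 arrays are also differences between the pairs. Within pair A the difference was -2.75 for Pard6b and -1.19 for Tjp1, and within pair B -3.43 and -1.05. Those of Llgl2, Tjp3 and Ocln were -0.44, -0.51 and -0.73 within pair A and -1.83, -3.68 and -6.66 within pair B. So the values of these 3 genes differed between the pairs, while Pard6b and Tjp1 had like values. For Crb3 they were -1.25 and -0.38, for Pard3 0.43 and -0.47, for Prkci -0.01 and 0.66 and for Scrib -0.32 and 0.15. With the pair as a block, Pard6b remained called (limma adjusted p = 0.0452), as did Pard6g, Prkcz, Tiam1, Jam2 and Lsr. The median over the 9 genes was -0.51 within pair A and -1.05 within pair B, and over all genes -0.03 and 0.06.

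**Figure D4:**
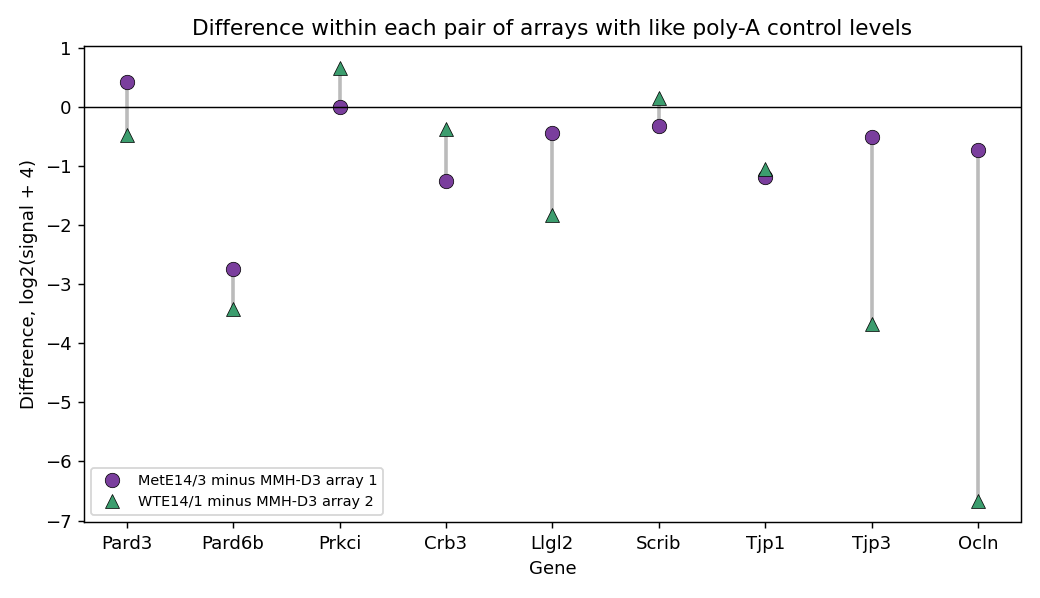
Difference on the log2(signal + 4) scale of MetE14/3 minus MMH-D3 array 1 (circles) and of WTE14/1 minus MMH-D3 array 2 (triangles) for each of the 9 genes, with grey lines joining the values of a gene. Pard6b and Tjp1 have both points below 0 and near each other, while the triangles of Tjp3 and Ocln lie far below their circles.

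Marker lists were read against the same shares of all genes: 0.516% called lower, 0.397% higher, 21.4% with both RLSC lines below both MMH-D3 arrays and 20.8% above. Of 10 epithelial markers 7 were tested and 0 called, with 6 lower at an unadjusted p under 0.05, against 7.1% of all genes. Both RLSC lines lay below both MMH-D3 arrays at 6, and the summed signal of the list was 16635 to 27512 in RLSC and 45082 to 54930 in MMH-D3. E-cadherin (Cdh1) had the largest difference of the list (-5.16), at 522.4 and 45.2 in RLSC against 3815.9 and 7390.1. Epcam differed by -3.55. The keratins Krt7, Krt8, Krt18 and Krt19 differed by -1.24 to -0.77 and read at least 1072 in each RLSC line. Grhl2 overlapped between the groups. Of 12 mesenchymal markers 10 were tested, 3 called higher and 7 with RLSC above, with sums of 24762 to 41666 against 16659 to 17893. Vim held 13957 and 14172 of these sums on the MMH-D3 arrays, 13466 in MetE14/3 and 17248 in WTE14/1. Vim, Snai2 and Col3a1 overlapped between the groups. Of the 3 called, Tagln read 8.8 and 1.23 in MMH-D3, below the filter level. It passed the filter only through RLSC, so this count is a description. Of 10 hepatocyte markers 7 were tested, 2 called lower and 6 with RLSC below. Sums over the 8 with a probe set were 202 to 383 against 5501 to 9833, and albumin (Alb) read 44.7 and 440.5 in MMH-D3. In RLSC, Alb, Ttr and Apoa1 read at most 8.98, below the filter level. These genes passed the filter only through MMH-D3, so the count of 6 is a description. Of 6 mesothelial markers 5 were tested, 2 called lower and 4 with RLSC below, with sums of 2184 to 3016 against 12671 to 17842. Of the 2 called, Wt1 read 9.2 in MetE14/3 and 14.8 in WTE14/1, below or near the filter level. It passed the filter through MMH-D3, so these counts are a description. Sums of the 6 endothelial markers and of 5 blood cell markers were at most 156 on any array; the red cell marker Hbb-b1 had no probe set named here. Both Pecam1 and Ptprc lay below the filter. The part of epithelial, mesenchymal, hepatocyte and mesothelial content in the differences of the polarity genes was not tested.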

How the data were processed

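The authors deposited 1 linear intensity per probe set and array. Per the submitters' processing notes they used GCOS, Affymetrix software whose version and settings the sources used here do not give; detection calls were not used. Each array had a trimmed mean of 200.001. Control probe sets (64) were left out. Values entered as log2(signal + 4), which understates changes of low genes. Array medians differed by 0.61 on the log2 scale, over the limit of 0.25, so arrays were quantile normalized. Probe sets with a mean under the 40th percentile were removed, which left 27022 probe sets and 12598 genes. Names came from the platform annotation, matched by Entrez identifier to a RefSeq table of GRCm38.p6: 34945 probe sets had 1 symbol, 932 several and 9160 none. The groups were compared with lmFit and eBayes (trend) of limma 3.58.1 under R 4.3.3, two-sided, with 2 residual and 4.24 prior degrees of freedom. The fit was tried on simulated data with independent noise drawn from its own fitted variances and no effect of array pair. That trial checked the code and not how well the fit suits these arrays. RLSC replicate numbers only name the lines.

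The 9 genes, the gene lists and the settings were chosen with earlier results of these data known. The genes named were all 9 members with every probe set, listed pathway genes past the threshold, otherwise per list the largest difference each way without overlap, and genes sharing an array order; PAR genes were all named. Alternatives were other pseudocounts, scalings, filters and probe set summaries, no variance trend, the array pair as a block, and leaving out each array.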

Additional observations from a re-analysis of the deposited data

How the results depend on the processing

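Of 13 alternatives, Pard6b kept its call under 7 and its direction under all, and the other 8 genes stayed uncalled except Ocln without MetE14/3, where WTE14/1 is the lone RLSC array. The number of the 9 genes called lower, 1, became 0 without a filter and without a variance trend, and 0 to 1 when an array was left out. That of their probe sets called lower, 2, became 0 with a pseudocount of 1, without a filter and without a trend, and 1 with a pseudocount of 32 and with the array pair as a block (0 to 0 when an array was left out).

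Over all genes, the 65 lower and 50 higher became 5 and 4 without a filter, and 128 lower with median scaling, which moved the share of higher calls from 43.5% to 33.7%. Leaving out an array gave 0 to 147 lower and 0 to 51 higher, with the highest counts without MetE14/3. The 106 lower and 92 higher probe sets became 69 and 61 with a pseudocount of 1, 18 and 22 without a filter, and 47 and 48 without a trend, with 189 lower under median scaling. Leaving out an array gave 0 to 136 lower and 0 to 66 higher.

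Genes at least 4-fold apart went from 646 to 275 between the RLSC lines and from 751 to 307 between the MMH-D3 arrays with a pseudocount of 32, and to 386 and 451 with the 60th percentile filter. Among the 9 genes, the 1 between the lines became 0 with a pseudocount of 32. The 0 between the MMH-D3 arrays became 1 with a pseudocount of 1 and without normalization.

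Signs turned for some genes that did not pass. Pard3 turned to 0.0733 without normalization, and leaving out an array gave -0.66 to 0.61, positive without MMH-D3 array 2 and without MetE14/3 (0.16). Its probe set 1420391_at turned to -0.0266 with a pseudocount of 32, with -1.34 (without MMH-D3 array 1) to 2.23 when an array was left out. Leaving out an array gave -0.40 to 0.22 for Scrib, positive without MMH-D3 array 1, and -1.68 to 0.0495 for Crb3, positive without MetE14/3. The cause was not tested. Without normalization the median of all genes was 0.10 and with median scaling -0.13, against 0.03. Prkcz, Tiam1 and Pard3 probe set 1420391_at gave no value under the 60th percentile filter. No pairing by label was possible because the labels number the MMH-D3 arrays alone, so the groups share no replicate numbers. The pairs used as a block were inferred from the level of the poly-A control probe sets. No detection calls were used, so which low signals exceed background is unknown.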
